A study of Mus musculus with 12 samples.

Results

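The effect of a diet with ACR, an acyclic retinoid studied against liver cancer, was measured in the livers of LiKM mice by RNA sequencing. The comparison was made between the 3 LiKM mice whose titles name the ACR diet and the 3 LiKM mice whose titles name the normal diet, which are 6 of the 12 libraries of the series. Of the 24421 genes in the deposited table, 13880 had enough counts to be tested. All mice were male and 4 months old when non-tumorous liver was taken, and the ACR mice had received 0.06% ACR in the diet from the age of 5 weeks. The other 6 libraries came from LiK mice, 3 on each diet, and served to estimate the spread and to test whether the diet effect differed between strains. From what is known of the study, and not from the labels, albumin-driven Cre acts in the hepatocytes of both strains, in mice on either diet. LiKM mice lack Mdm2 there, so every LiKM mouse, control or treated, shares that loss. Albumin-driven Cre also acts in the fetal precursors of hepatocytes and bile duct cells. No source used here says whether mice on the 2 diets were littermates.

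Retinoic acid works through nuclear receptors (RAR and RXR) that sit on paired DNA half-sites and switch on target genes, among them Cyp26a1, whose enzyme breaks retinoic acid down, and Rarb, a retinoic acid receptor. RXR is also the partner of PPAR alpha, the receptor that controls fatty acid oxidation in hepatocytes. In a liver under lasting damage, cells with bile duct and progenitor traits spread from the portal tracts, an expansion known as the ductular reaction. Such cells carry keratins 7 and 19, Epcam, Spp1 and Sox9, and are wrapped in a basement membrane of laminins, agrin and nidogen.

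The LiKM libraries held 10124813 to 14748730 counts on the normal diet and 14679596 to 16068513 on ACR. Albumin took 8.21 ± 0.0698% of the counts on the normal diet and 11.3 ± 1.61% on ACR (mean ± SD, n = 3, as for all levels below). In a principal component analysis of the 6 libraries the first component (38.6% of the variance) separated the 2 mice numbered 3 from the other 4, and the second (22.2%) separated the diets, with normal diet mice at 12.5 or more and ACR mice at -6.46 or less. The liver origin held in all 6 libraries: the 32 measured hepatocyte markers summed to between 159621 and 243360 CPM (counts scaled to library size), and 8 of 15 pancreatic acinar genes were at 0 in all of them. Counts of Mdm2 cover all its exons together, so they do not test whether part of it was deleted.

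With all 12 libraries and no pairing, 0 of 13880 genes passed an adjusted p of 0.05 for ACR against normal diet in LiKM (0% of the genes tested; quasi-likelihood test of edgeR, p-values adjusted by Benjamini-Hochberg). At an unadjusted p under 0.05 there were 1005 genes (7.24%), of which 324 were higher on ACR (2.33%) and 681 lower (4.91%), and DESeq2 called 70 genes. The smallest adjusted p was 0.0609, shared by Cyp26a1, Ehf, Itga3 and Adgrg1, all lower on ACR. Same-numbered LiKM mice deviated together from their group means, which is why they were paired, and no label gives this pairing. The choice to pair rests on the same libraries as the paired p-values, so those p-values may be too small. A fit of the 6 LiKM libraries with the mouse number as a block, called the paired test below, called 73 of 13694 genes (0.533%). Of these 14 were higher on ACR (0.102%) and 59 lower (0.431%), and 51 of the lower genes were lower at least 2-fold. "Rose" and "fell" below refer to this paired test, except where LiK is named, since no gene passed the unpaired test in LiKM. In fits of all 12 libraries, 7 genes passed with the block nested in strain and 9 with the block in LiKM only. The paired count depended on the mice: it was 222 without the mice numbered 1, 23 without those numbered 2 and 0 without those numbered 3. All 73 genes kept their direction in each of these 3 fits, 69 had an unadjusted p under 0.05 without the block, and in 68 the 3 ACR libraries did not overlap the 3 normal diet libraries. These counts come from the same libraries that selected the 73 genes, so they are not independent support for the calls. Over all genes 1477 did not overlap (10.6%), of which 547 were higher (3.94%) and 930 lower (6.7%) on ACR. The errors include the spread between mice, since each library is 1 mouse, and with whole liver tissue fewer cells of a type and less RNA per cell cannot be told apart.

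**Figure D1:**
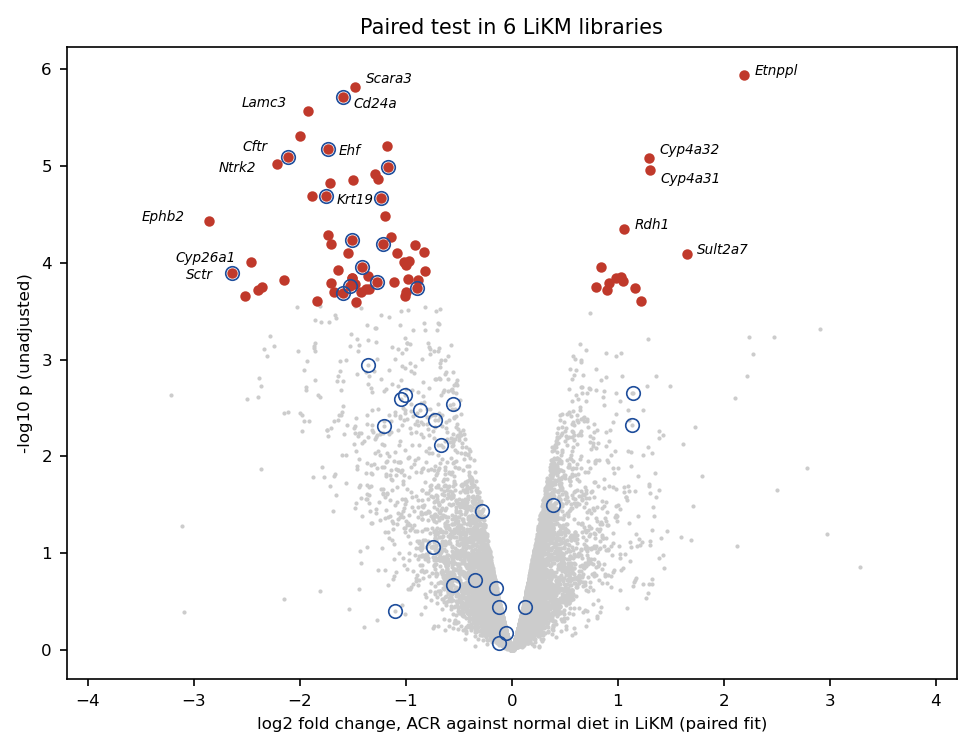
Paired test of ACR against normal diet in the 6 LiKM libraries, with the log2 fold change of each of 13694 genes on the horizontal axis and -log10 of its unadjusted p on the vertical axis. Red points are the 73 genes with an adjusted p under 0.05, 59 of them on the lower side, and blue rings mark the biliary and progenitor list.

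Among the 38 gene lists examined, that of bile duct and progenitor markers held more of the genes that fell than any other, 14 of 59. Of 38 listed markers 35 were tested (3 had too few counts, among them Dmbt1 and Ggt1), 31 were below 0 on the log2 fold change scale and 4 above, and their median was -1.01, against -0.01 over all genes. In the paired test 14 of the 35 fell and 0 rose. That count was also 14 without the mice numbered 1, but 3 without those numbered 2 and 0 without those numbered 3, and 7 with a minimum of 5 CPM in 3 libraries. With all 12 libraries in the fit 2 members passed with the block nested in strain and 1 with the block in LiKM only. In the unpaired test 21 had an unadjusted p under 0.05 and were lower and 1 was higher, against 4.91% and 2.33% of all genes. On ACR 26 of the 35 were lower in all 3 pairs, as were 17.4% of all genes. Across every processing alternative the median lay between -1.14 and -0.90, and DESeq2 called 9 members lower. The mean log2 CPM of the list was 3.76 to 3.79 in the normal diet mice and 2.84 to 3.09 in the ACR mice, with no overlap. The list's summed CPM did not differ in this way (2765 to 3152 on the normal diet, 2959 to 3025 on ACR), because Ambp, which hepatocytes also make in large amounts, holds most of it. Ambp had 1634 ± 106 CPM on normal diet and 2115 ± 184 on ACR (log2 0.37, edgeR adjusted p = 0.52).

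Ehf (chr2:103263433-103303278, mm10, a protein-coding gene), an epithelial transcription factor of the ETS family, had the smallest unpaired p of the list. Its levels were 11.3, 12.7 and 12.5 CPM in normal diet mice 1, 2 and 3 and 2.92, 3.93 and 4.03 CPM in ACR mice 1, 2 and 3. Every ACR mouse was below every normal diet mouse, and the fitted fold change was -1.74 on the log2 scale (SE 0.24, 3.35-fold lower). The adjusted p of Ehf was 0.0609 unpaired and 0.0127 paired (edgeR). Krt19 (chr11:100140810-100148665), the keratin that marks bile duct cells, had 11.5, 8.88 and 11.1 CPM on normal diet and 2.67, 2.51 and 4.15 CPM on ACR. It was 3.36-fold lower on ACR (log2 -1.75, SE 0.32, edgeR adjusted p = 0.141 unpaired and 0.0156 paired). Cftr (chr6:18170687-18322768), the chloride channel of duct cells, had 10.9, 9.3 and 5.65 CPM on normal diet and 2.05, 2.37 and 1.4 CPM on ACR (log2 -2.15, SE 0.40, edgeR adjusted p = 0.142 unpaired and 0.0127 paired). Normal diet mouse 3 was the lowest of its group for Cftr and was still above every ACR mouse.

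Surface and duct genes were lower in the same mice. Cd24a (chr10:43578284-43584265), a surface protein of progenitor cells, had 32.5, 43.3 and 40.5 CPM on normal diet and 8.71, 15.0 and 15.1 CPM on ACR, and fell 3.01-fold (edgeR adjusted p = 0.00899 paired and 0.206 unpaired). Epcam, the adhesion molecule used to sort duct cells, had 14.0, 12.5 and 22.4 CPM against 5.35, 5.69 and 9.45 CPM and fell 2.35-fold (edgeR adjusted p = 0.0156 paired). Pkhd1, the gene of recessive polycystic kidney and liver disease, had 29.6, 36.0 and 40.0 CPM against 11.5, 16.1 and 19.4 CPM. For Epcam and Pkhd1 mouse 3 was the highest on both diets, and for none of these 3 genes did the diet groups overlap. The other members that fell in the paired test were Sctr, the secretin receptor (log2 -2.64), Cldn7 (-1.59), Itgb4 (-1.53), Foxj1, the master factor of motile cilia (-1.51), Muc1 (-1.41), Prom1 (-1.27), Bicc1 (-1.22) and Spp1 (-0.90). Spp1, which encodes osteopontin, had 507, 675 and 927 CPM on normal diet and 302, 327 and 476 CPM on ACR, and without the pairing its adjusted p was 0.818 (edgeR).

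Members of the list that did not pass even the paired test were mostly the transcription factors. Sox9, which marks duct cells and periportal hepatocytes, had 22.6 ± 5.85 CPM on normal diet and 14.4 ± 5.27 on ACR (edgeR adjusted p = 0.223 paired). Sox4 had 9.01 ± 0.99 and 4.48 ± 1.24 CPM without overlap (edgeR adjusted p = 0.131 paired), and Krt7, the other duct keratin, 4.92 ± 0.781 and 1.96 ± 0.891 CPM (0.0982 paired). Of the water channel and exchanger genes of ducts, Aqp1 (log2 -0.17) and Slc4a2 (log2 -0.08) had overlapping groups. Lgr5, which also marks pericentral hepatocytes, had a log2 fold change of -0.18.

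**Figure D2:**
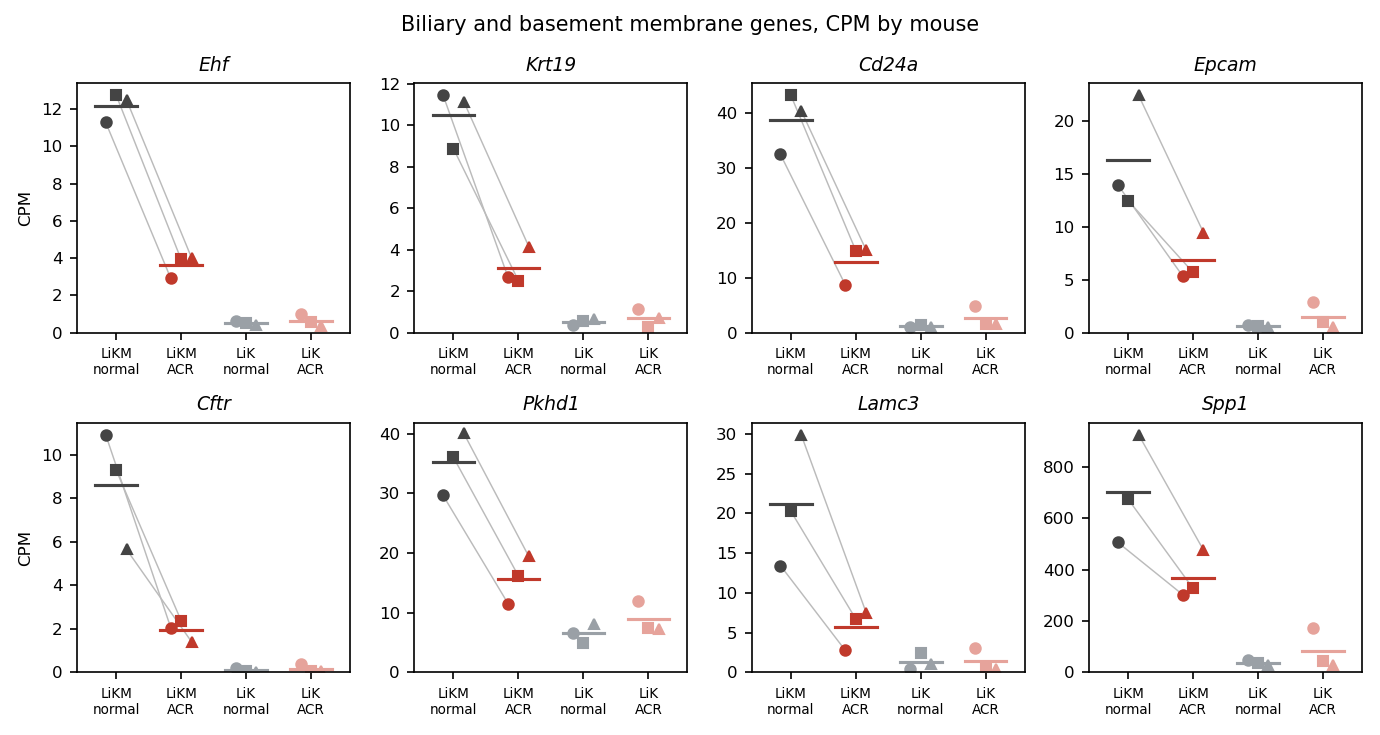
CPM of 8 biliary and basement membrane genes in each mouse (circle, square and triangle for mice 1, 2 and 3), with grey lines joining same-numbered LiKM mice and horizontal bars at group means. In each panel all 3 LiKM ACR mice lie below all 3 LiKM normal diet mice, and the LiK mice lie low on both diets.

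LiK livers held little of these transcripts on either diet. Ehf had 0.521 ± 0.108 CPM in LiK on normal diet and 0.651 ± 0.336 on ACR, Krt19 0.529 ± 0.162 and 0.702 ± 0.444, and Cd24a 1.18 ± 0.256 and 2.65 ± 1.95. For 12 of the 14 biliary genes that fell, even the lowest LiKM mouse on ACR was above the highest of the 6 LiK mice. The median log2 fold change of the 35 members was 0.40 in LiK. The mean log2 CPM of the list was 1.33, 1.14 and 1.24 in LiK normal diet mice 1, 2 and 3 and 2.11, 1.30 and 1.20 in LiK ACR mice 1, 2 and 3. LiK ACR mouse 1 thus stood apart, and it is also part of the strain comparison that follows. A test of the difference between the strains' diet effects gave 15 members with a more negative effect in LiKM at an unadjusted p under 0.05 and 1 with a more positive one, where 6.69% of all genes had the former and 4.78% the latter, and 0 passed adjustment (edgeR). For Ehf that difference was -2.04 on the log2 scale (edgeR adjusted p = 0.139), and for Cd24a -2.71 (also 0.139).

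Of 11 genes tested for laminins, the main proteins of basement membranes, 5 fell in the paired test and all 11 were below 0 (median log2 -0.34). The laminin family was picked after its values were seen. Lamc3, a laminin gamma chain, had 13.4, 20.3 and 29.9 CPM on normal diet and 2.74, 6.71 and 7.5 CPM on ACR, in the same order of mice on both diets, and fell 3.78-fold (edgeR adjusted p = 0.00927 paired and 0.465 unpaired). Lama4 fell 2.15-fold, Lama5 1.98-fold and Lamb2 1.96-fold. Agrn, the proteoglycan agrin, had 100, 116 and 130 CPM on normal diet and 51.3, 66.6 and 75.4 CPM on ACR (log2 -0.84, SE 0.14, edgeR adjusted p = 0.105 unpaired and 0.035 paired). Itga3, a laminin receptor subunit, had 28.2, 24.6 and 23.8 CPM against 12.4, 15.5 and 14.8 CPM, with an adjusted p of 0.0609 unpaired and 0.063 paired (edgeR). Of 29 genes whose symbols begin with Itga or Itgb, most of them integrin chains, 17 were below 0 and 12 above, and 1 fell, Itgb4. Of 31 extracellular matrix genes, most of them of the interstitial matrix, 2 fell, among them Lama5, and the median was -0.10. Of 23 stellate cell and myofibroblast markers 0 had an unadjusted p under 0.05 (median 0.01), and likewise 0 of 23 endothelial markers (median -0.10). The mean log2 CPM of the stellate list was 3.61, 3.52 and 2.84 in normal diet mice 1, 2 and 3 and 3.44, 3.17 and 3.54 in ACR mice 1, 2 and 3. For the matrix list the same values were 4.83, 4.51 and 3.72 against 4.28, 4.04 and 4.40. Normal diet mouse 3 was thus the lowest of all LiKM mice in both lists.

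Several receptors and epithelial regulators outside the biliary list fell in the paired test. Ntrk2, the receptor of brain-derived neurotrophic factor, had 16.9, 11.8 and 7.56 CPM on normal diet and 5.04, 1.83 and 1.34 CPM on ACR, a 4.65-fold fall (edgeR adjusted p = 0.0127 paired and 0.187 unpaired). It was low on ACR in LiK as well, with 13.0 ± 3.78 CPM on normal diet and 3.38 ± 0.522 on ACR (edgeR adjusted p = 0.106), and the strains' diet effects differed by -0.19 (unadjusted p = 0.76). Fgfr3, a fibroblast growth factor receptor, had 54.8, 68.3 and 98.9 CPM against 30.4, 24.0 and 40.3 CPM and fell 2.29-fold. Kif12, a kinesin, had 4.2, 6.76 and 10.9 CPM against 1.12, 1.97 and 2.68 CPM and fell 3.69-fold. Adgrg1, an adhesion receptor, fell 2.01-fold (edgeR adjusted p = 0.043 paired and 0.0609 unpaired). Gas6, the ligand of the receptor Axl, had 154 ± 16.7 CPM on normal diet and 93.1 ± 7.45 on ACR and did not pass the paired test (edgeR adjusted p = 0.0677). Spint1, an inhibitor of surface serine proteases, had 7.87 ± 0.214 and 2.77 ± 0.851 CPM and fell 2.85-fold. The epithelial factor Grhl2, chosen after its values were seen, fell 4.44-fold from 2.72 ± 0.545 to 0.593 ± 0.029 CPM.

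YAP and TEAD drive a programme that hepatocytes use when they take on duct traits, and Notch signalling from portal cells directs the same choice. Of 24 YAP and TEAD targets 2 fell in the paired test, Ankrd1 and Arhgef17, and the median was -0.44. At an unadjusted p under 0.05, 7 were lower, against 4.91% of all genes, and 0 were higher, against 2.33%. Ankrd1, a muscle and repair protein, had 7.44, 6.55 and 9.78 CPM on normal diet and 2.05, 1.49 and 3.78 CPM on ACR, with no overlap (log2 -1.69, SE 0.39, edgeR adjusted p = 0.234 unpaired and 0.0311 paired). Arhgef17, a guanine nucleotide exchange factor, had 18.2, 15.6 and 13.8 CPM against 7.15, 7.59 and 7.26 CPM, the ACR mice being nearly equal. Ajuba had 18.1 ± 2.33 and 9.33 ± 3.16 CPM (edgeR adjusted p = 0.0529 paired). Ctgf, the target most often used as a readout, had 30.5 ± 13.3 CPM on normal diet and 21.6 ± 13.3 on ACR; the groups overlapped, although each ACR mouse was below the normal diet mouse of its number (edgeR adjusted p = 0.926 unpaired and 0.216 paired). Of 17 Notch pathway genes 3 had an unadjusted p under 0.05, all lower, against 4.91% of all genes, and 0 passed the paired test. Among the 3 was the ligand Jag1 (21.1 ± 2.19 and 13.8 ± 3.46 CPM). Of 22 feedback genes and targets of ERK, the kinase below Ras, 1 had an unadjusted p under 0.05 and was lower, against 4.91% of all genes (median -0.29).

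The Ankrd1 promoter is printed because TEAD factors bind GGAATG, and the window shows where these letters stand in the YAP target with the largest fold change. It spans 300 bases around the start site (RefSeq, GRCm38.p6, chr19:36119795-36120094, minus strand), 5′ to 3′ along the gene, with each GGAATG in capitals, 210 and 123 bases before the start site. GGAATG, searched on both strands, is in 14.7% of 32851 promoter windows of this length, so its presence is common.
Ankrd1: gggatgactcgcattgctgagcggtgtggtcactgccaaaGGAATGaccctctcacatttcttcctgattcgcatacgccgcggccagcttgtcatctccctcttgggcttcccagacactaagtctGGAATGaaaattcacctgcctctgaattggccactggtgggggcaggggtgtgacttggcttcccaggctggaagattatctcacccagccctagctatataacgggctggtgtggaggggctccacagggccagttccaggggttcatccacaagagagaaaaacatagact

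Cyp26a1 was lower on ACR in both strains. Cyp26a1 (chr19:37697798-37701536), which degrades retinoic acid and is itself switched on by it, had 3.06, 5.49 and 3.5 CPM in the normal diet mice and 0.933, 0.746 and 0.427 CPM in the ACR mice. The ACR mice were all under 1 CPM and the normal diet mice all above 3. The fold change was -2.50 on the log2 scale (SE 0.35, 5.67-fold lower, edgeR adjusted p = 0.0609 unpaired and 0.0386 paired). In LiK Cyp26a1 went from 2.77 ± 0.152 to 0.319 ± 0.131 CPM (log2 -3.08, edgeR adjusted p = 0.017), and the 2 diet effects differed by 0.57 (unadjusted p = 0.302). Rarb (chr14:16430839-16819156) had 5.82, 6.2 and 8.35 CPM on normal diet and 4.42, 3.53 and 4.7 CPM on ACR; the groups did not overlap, but the difference did not pass either test (log2 -0.68, edgeR adjusted p = 0.44 unpaired and 0.271 paired). The sister enzyme Cyp26b1 ranged from 3.9 to 10.4 CPM on normal diet and from 2.01 to 40.0 CPM on ACR, with wide overlap. Of 39 listed genes of retinoid metabolism and response 34 were tested, 1 fell (Cyp26a1) and 1 rose (Pdk4, also a PPAR alpha target), and the median was 0.06. Lrat, which stores retinol as esters in stellate cells, had 17.5 ± 8.46 and 12.7 ± 3.91 CPM (edgeR adjusted p = 0.912). Rdh1, a retinol dehydrogenase, rose from 7.02, 10.3 and 7.64 CPM to 13.2, 22.1 and 16.2 CPM (2.08-fold, edgeR adjusted p = 0.0282 paired and 0.246 unpaired); its counts were not whole numbers in any of the 12 libraries, as arises with reads shared between near-identical genes, so its level is uncertain.

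The promoters of Cyp26a1 and Rarb are shown because both hold the letters of a retinoic acid receptor element in front of the start site. The element searched was a pair of half-sites in the same direction with 5 bases between, on both strands, in any of 9 forms: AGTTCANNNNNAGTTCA, AGTTCANNNNNAGGTCA, AGTTCANNNNNGGTTCA, AGGTCANNNNNAGTTCA, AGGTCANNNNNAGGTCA, AGGTCANNNNNGGTTCA, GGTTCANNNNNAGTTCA, GGTTCANNNNNAGGTCA and GGTTCANNNNNGGTTCA. The windows run 5′ to 3′ along each gene (RefSeq, GRCm38.p6; Cyp26a1 at chr19:37697558-37697857, plus strand; Rarb at chr14:16575427-16575726, minus strand) and the element is in capitals, beginning 32 bases before the start site in Cyp26a1, where it reads on the opposite strand, and 53 bases before it in Rarb.
Cyp26a1: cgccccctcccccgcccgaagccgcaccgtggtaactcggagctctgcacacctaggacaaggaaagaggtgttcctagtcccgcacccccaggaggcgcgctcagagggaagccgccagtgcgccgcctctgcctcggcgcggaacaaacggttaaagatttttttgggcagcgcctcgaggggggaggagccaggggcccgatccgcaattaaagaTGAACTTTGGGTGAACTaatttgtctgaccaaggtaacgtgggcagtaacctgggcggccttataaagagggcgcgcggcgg
Rarb: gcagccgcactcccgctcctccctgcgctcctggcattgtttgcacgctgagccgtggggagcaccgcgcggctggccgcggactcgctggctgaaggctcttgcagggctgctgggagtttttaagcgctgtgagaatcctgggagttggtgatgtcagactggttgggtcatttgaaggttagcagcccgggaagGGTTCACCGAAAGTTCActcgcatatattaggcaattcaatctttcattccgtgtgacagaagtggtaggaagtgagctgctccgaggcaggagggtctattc
The element was found in 20 of 32851 promoter windows (0.0609%), those of 20 genes, of which 4 were tested here: Blvrb, Cyp26a1, Rarb and Tnfsf13b. Of these 3 were lower on ACR and 1 higher, and 2 had an unadjusted p under 0.05, Cyp26a1 and Rarb. A match describes these letters and does not show that a receptor is bound.

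Of 6 genes tested of the Cyp4a family, which encode fatty acid hydroxylases, 2 rose on ACR. Cyp4a32 (chr4:115600969-115621602) had 14.3, 16.5 and 14.9 CPM on normal diet and 30.4, 37.6 and 43.7 CPM on ACR (log2 1.29, SE 0.20, edgeR adjusted p = 0.0865 unpaired and 0.0127 paired). Cyp4a31 (chr4:115563649-115579015) had 8.88, 6.06 and 7.24 CPM against 20.6, 16.2 and 16.9 CPM (log2 1.27, SE 0.27, edgeR adjusted p = 0.187 unpaired and 0.0127 paired). For both genes the lowest ACR mouse was well above the highest normal diet mouse. Both also rose in LiK, by log2 1.41 for Cyp4a32 (edgeR adjusted p = 0.02) and by log2 2.22 for Cyp4a31 (edgeR adjusted p = 0.017). Their counts were not whole in any library, so reads may be shared between the copies. Cyp4a14, whose counts were whole, had 5.4, 1.27 and 2.23 CPM on normal diet and 22.6, 28.9 and 9.39 CPM on ACR without overlap, but did not pass (edgeR adjusted p = 0.644 unpaired and 0.296 paired). In the family 4 genes were above 0, and Cyp4a12a and Cyp4a12b were below 0 with overlapping groups; the family was counted after its values were seen.

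Few other PPAR alpha targets passed. Of 42 tested 3 rose in the paired test, Cyp4a31, Cyp4a32 and Pdk4, and 0 fell, with a median of 0.12. Pdk4, the kinase that shuts off pyruvate dehydrogenase in fasting, had 6.9, 8.59 and 12.9 CPM on normal diet and 11.3, 21.2 and 25.9 CPM on ACR; the groups overlapped, but each pair went up (2.04-fold, edgeR adjusted p = 0.041 paired and 0.65 unpaired). Ehhadh, the bifunctional enzyme of peroxisomal beta-oxidation, had 111, 116 and 76.8 CPM against 152, 175 and 153 CPM without overlap (log2 0.66, edgeR adjusted p = 0.22 unpaired and 0.0835 paired). In LiK Ehhadh had 202 ± 23 CPM on normal diet and 172 ± 13 on ACR.

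**Figure D3:**
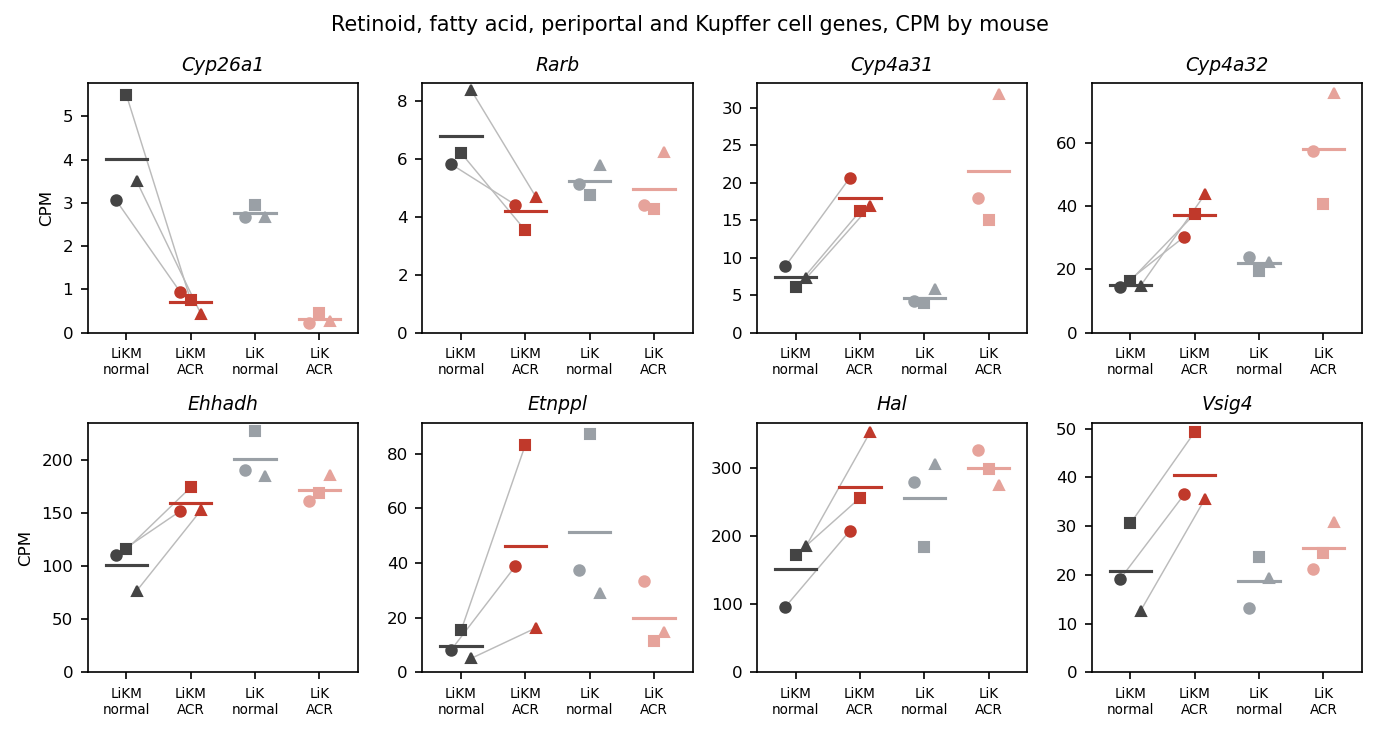
CPM of 8 retinoid, fatty acid, periportal and Kupffer cell genes in each mouse, drawn as in the plot of biliary genes. Cyp26a1 is lower and Cyp4a31 and Cyp4a32 are higher on ACR in both strains, while Etnppl goes up in all 3 LiKM pairs and lies lower in LiK mice on ACR than its LiK normal diet mean.

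Periportal hepatocytes handle amino acids and ammonia, and 4 of 26 genes of this zone rose on ACR in LiKM while 0 fell (median 0.29). In the unpaired test 6 were higher at an unadjusted p under 0.05, against 2.33% of all genes. That count was 2 without ACR mouse 2 and 1 with clock components as covariates. Etnppl (chr3:130617448-130637521), the phospholyase that breaks down phosphoethanolamine, had the smallest paired p of all genes. It had 7.98, 15.3 and 5.09 CPM in normal diet mice 1, 2 and 3 and 38.7, 83.3 and 16.2 CPM in ACR mice 1, 2 and 3. Each pair went up, while mice of 1 diet also lay far apart, and the adjusted p was 0.00899 paired and 0.453 unpaired (edgeR, log2 2.19, SE 0.17 paired). In LiK, Etnppl had 51.3 ± 31.3 CPM on normal diet and 19.9 ± 11.9 on ACR, and the strains' diet effects differed by 3.65 (edgeR adjusted p = 0.23). Hal, which starts histidine breakdown, had 95.9, 172 and 185 CPM on normal diet and 207, 256 and 352 CPM on ACR and rose 1.86-fold (edgeR adjusted p = 0.041 paired and 0.444 unpaired). Aldh1b1, a mitochondrial aldehyde dehydrogenase, had 73.2 ± 3.13 CPM on normal diet and 126 ± 21.2 on ACR and rose 1.74-fold, and Ctsc, a lysosomal protease that activates serine proteases, rose 1.79-fold. Core urea cycle genes were not among them: Cps1 had a log2 fold change of 0.06, Ass1 of 0.14 and Arg1 of -0.05. Sult2a7, a sulfotransferase, rose 3.14-fold from 2.46, 2.25 and 1.59 CPM to 6.9, 8.68 and 4.27 CPM (edgeR adjusted p = 0.035 paired). The paired calls of the periportal genes were absent without the mice numbered 3, as for all other genes.

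Hepatocyte markers were mostly above 0. Of 32 tested 30 were above 0 (median 0.25), and 0 passed either test. At an unadjusted p under 0.05, 6 were higher, against 2.33% of all genes, and 0 were lower. Their summed level was 159621 to 179961 CPM on normal diet and 206936 to 243360 CPM on ACR, without overlap, and Alb holds much of that sum. The mean log2 CPM of the list overlapped, with 10.79 to 11.11 on normal diet and 10.98 to 11.29 on ACR. Alb itself had 71623 ± 5025 CPM on normal diet and 109220 ± 18296 on ACR (log2 0.61, edgeR adjusted p = 0.537), and Asgr2, a subunit of the asialoglycoprotein receptor, 106 ± 16.3 and 152 ± 28.3 CPM (edgeR adjusted p = 0.395). Fibrinogen genes led both this list and the acute phase list: Fga had a log2 fold change of 0.70 (edgeR adjusted p = 0.448) and Fgg of 0.64 (0.464). Of 35 acute phase genes 9 had an unadjusted p under 0.05, all higher, against 2.33% of all genes, with a median of 0.34. The part of this shift in the lower duct gene levels was not tested. Of 28 pericentral genes 0 passed and the median was 0.03.

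Markers of Kupffer cells, the resident macrophages of the liver, were mostly above 0. Of 28 macrophage and Kupffer cell markers 24 were above 0 (median 0.48, and 0.42 in LiK). Without overlap 13 were higher, against 3.94% of all genes. At an unadjusted p under 0.05, 5 were higher, against 2.33% of all genes. In the paired test 1, Vsig4, rose, against 0.102% of all genes. The summed level was 855 to 1338 CPM on normal diet and 1352 to 1454 on ACR. Vsig4, a complement receptor of Kupffer cells, had 19.1, 30.6 and 12.6 CPM on normal diet and 36.6, 49.4 and 35.6 CPM on ACR (2.07-fold, edgeR adjusted p = 0.041 paired and 0.448 unpaired). Clec4f, a lectin of Kupffer cells, had 60.5, 80.8 and 42.6 CPM against 96.3, 119 and 111 CPM (edgeR adjusted p = 0.0848 paired), and Cd5l 62.6, 86.8 and 33.7 CPM against 127, 131 and 140 CPM (0.255 paired). In all 3 genes normal diet mouse 3 was the lowest of the 6. Ccl6, a chemokine of myeloid cells, rose 2.23-fold (6.9, 10.6 and 5.65 CPM against 20.2, 17.4 and 12.6 CPM), and Fcna, a ficolin, 1.98-fold. Among genes of recruited macrophages Itgam was at log2 -0.45, Ccr2 at 0.17 and Trem2 at 0.22, none past either test. With clock components as covariates 1 macrophage marker in place of 5 had an unadjusted p under 0.05, and without normal diet mouse 3 or without ACR mouse 2 it was 3.

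Interferon response genes were above 0 in 40 of 44 cases (median 0.42), and 0 passed either test. At an unadjusted p under 0.05, 9 were higher, against 2.33% of all genes, and 0 were lower, against 4.91%. Irgm1 had 47.2 ± 5.53 CPM on normal diet and 73.9 ± 16.3 on ACR (edgeR adjusted p = 0.246, with uncertain counts) and Gbp6 15.3 ± 8.04 and 34.2 ± 15.7 CPM (0.51). The median of the same list in LiK was also 0.42. T and NK cell markers had a median of 0.54 over 17 genes and B and plasma cell markers of 0.48 over 9, with 1 member higher and 1 lower at an unadjusted p under 0.05 in the former and 0 in the latter. Neutrophil markers had a median of 0.51 over 9 genes, and red cell precursor markers of -0.11 over 8.

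No gene of the p53 pathway, which loss of Mdm2 releases, passed either test. Mdm2 (chr10:117688875-117710758) had 35.0, 30.4 and 29.0 CPM on normal diet and 31.8, 47.6 and 67.2 CPM on ACR, so that ACR mouse 1 lay among the normal diet mice (log2 0.63, edgeR adjusted p = 0.453). Trp53 had 24.2 ± 5.06 and 24.1 ± 2.34 CPM. Cdkn1a, which encodes the cell cycle inhibitor p21, spread widely on both diets, with 86.6, 22.9 and 15.1 CPM against 40.8, 113 and 54.3 CPM (edgeR adjusted p = 0.908). Of 40 p53 targets 32 were above 0 (median 0.17), and 0 passed either test. At an unadjusted p under 0.05, 3 were higher, against 2.33% of all genes: Mdm2, Fas and Trp53inp1. Of 40 cell cycle genes 0 had an unadjusted p under 0.05 (median 0.16). Mycn had 4.40 ± 3.18 and 4.98 ± 2.33 CPM (edgeR adjusted p = 0.992). Ccnd2, the cyclin D2 gene, fell from 24.2 ± 6.14 CPM to 11.7 ± 0.895 CPM (edgeR adjusted p = 0.0399 paired); it was chosen after its values were seen. Of 35 secreted factors of senescent cells Spp1 fell in the paired test. Pdgfb (7.15 ± 1.26 and 4.04 ± 1.34 CPM) and Pdgfa (6.74 ± 0.555 and 4.49 ± 1.30 CPM) were lower and Cxcl10 (4.08 ± 0.747 and 8.09 ± 2.41 CPM) higher without passing, with edgeR adjusted p-values of 0.577, 0.54 and 0.527.

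Several clock genes lay far apart in LiKM mice of the same diet. Npas2, a partner of the clock's driving factor, had 0.66, 0.0704 and 1.51 CPM on normal diet and 0.0622, 10.4 and 18.2 CPM on ACR, and Arntl, which encodes BMAL1, 10.4, 5.71 and 7.16 CPM against 5.66, 30.3 and 29.6 CPM. ACR mice 2 and 3 were thus high in both genes and ACR mouse 1 was not. Dbp, an output gene of the clock, had 8.46, 25.6 and 74.0 CPM against 15.4, 3.25 and 3.54 CPM, and Nr1d1, a repressor, 8.04, 20.7 and 215 CPM against 18.2, 7.12 and 81.2 CPM. Per2 was lowest in the mice numbered 3, with 34.9 CPM on normal diet and 8.54 on ACR against 97.7 to 147 CPM in the other 4. Bhlhe41, a light-responsive repressor, had 3.65 ± 1.88 and 1.21 ± 0.759 CPM without overlap (edgeR adjusted p = 0.394 unpaired and 0.197 paired). Of 28 clock genes 3 were higher and 4 lower at an unadjusted p under 0.05, against 2.33% and 4.91% of all genes, and 0 passed either test. No source used here gives the time of day at which livers were taken. With the libraries of normal diet mouse 3 and ACR mice 2 and 3 left out, the median of the biliary list was -1.09. That fit has ACR mouse 1 as the only LiKM mouse on ACR. With 2 components of the clock genes as covariates the median was -1.01, as in the fit without covariates. The same covariates were applied in the unpaired fit to the genes named by rule that passed the paired test. All 9 that rose and 15 that fell kept their sign, and an unadjusted p under 0.05, which all of them had without the covariates, was left in 4 of the 9 and 14 of the 15. Etnppl went from a log2 fold change of 2.28 (unadjusted p = 0.00898) to 2.08 (0.0545), Vsig4 from 0.96 to 0.73 (0.0785) and Cyp4a32 from 1.29 to 1.10 (0.0024, edgeR).

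**Figure D4:**
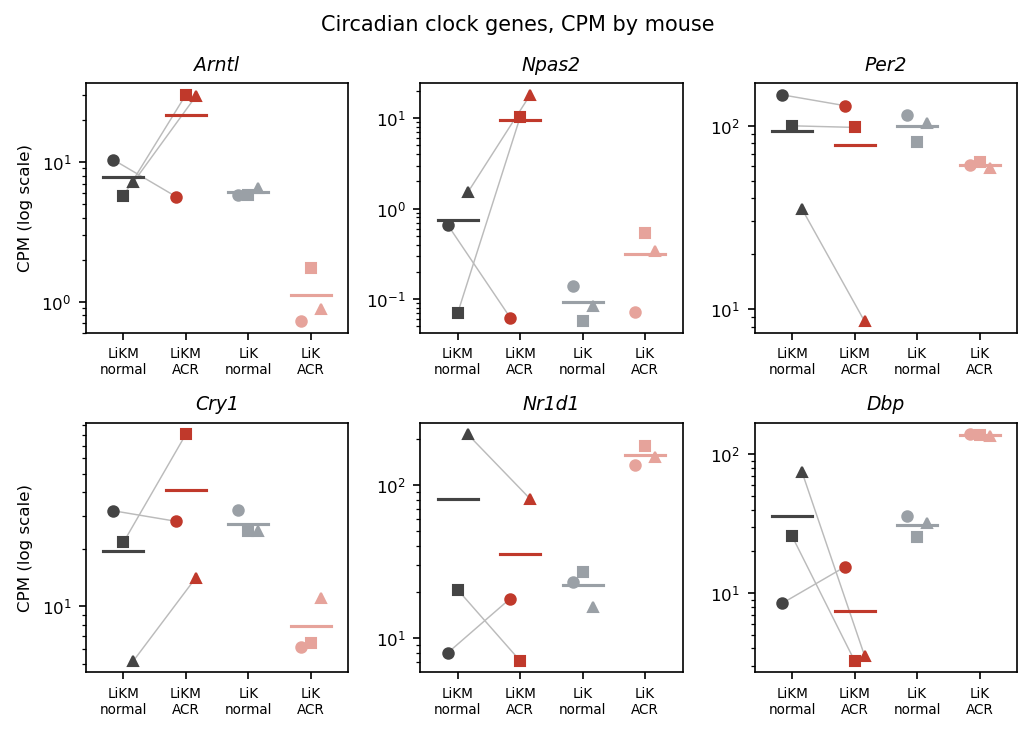
CPM of 6 circadian clock genes in each mouse on a log scale, drawn as in the plot of biliary genes. LiKM mice of 1 diet lie far apart, with ACR mice 2 and 3 high in Arntl and Npas2 and the mice numbered 3 low in Per2, whereas the 3 LiK mice of each diet lie closer together in most panels.

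The medians of the 38 lists ran from -1.01 for biliary and progenitor markers to 0.54 for T and NK cell markers, and after the biliary list came YAP and TEAD targets at -0.44. Of the 73 genes that passed the paired test, 14 were biliary markers, and 58 of the 59 that fell had a higher mean in LiKM than in LiK on the normal diet. That count rests on the LiKM normal diet mice that the fall is also measured from. On ACR, 51 of the 59 still had a LiKM mean above that of LiK mice on the normal diet. Of the 14 that rose, 10 had a lower mean in LiKM than in LiK on the normal diet, which rests on the same LiKM normal diet mice. The shares of all tested genes with such means were not counted, so these counts have no background to be read against.

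**Figure D5:**
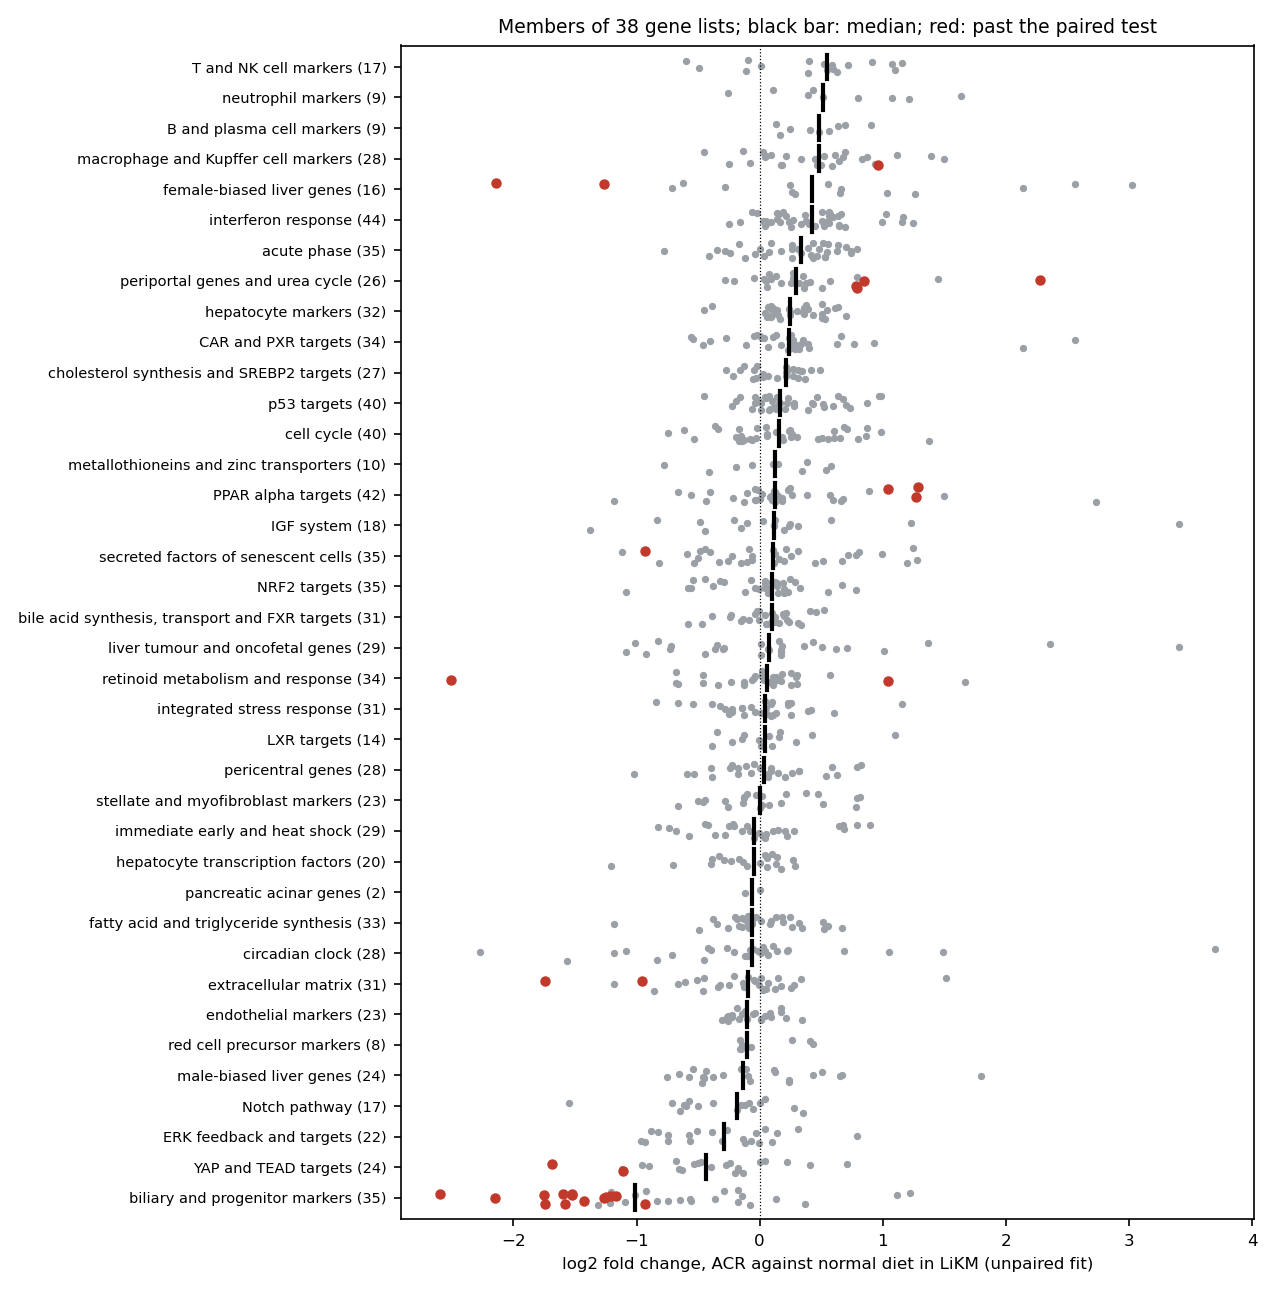
Log2 fold change of ACR against normal diet in LiKM (unpaired fit) for every tested member of 38 gene lists, with the number tested in brackets, a black bar at each list's median and genes past the paired test in red. The biliary and progenitor list lies lowest, with a median of -1.01 and 14 red points, and the pancreatic acinar list has 2 tested members.

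Diet changed 27 genes in LiK at an adjusted p of 0.05 (0.195% of those tested), 18 of them higher (0.13%) and 9 lower (0.0648%), in a comparison that shares no library with that in LiKM. Of the 73 genes of the LiKM paired test, 3 passed in LiK in the same direction: Cyp26a1, Cyp4a31 and Cyp4a32. A test of whether the diet effect differed between the strains called 1 gene (0.0072%), with 1593 at an unadjusted p under 0.05 (11.5%), and DESeq2 called 157. That gene was Mreg (chr1:72159442-72212307), melanoregulin, which acts in lysosome and melanosome transport. It had 16.6, 20.7 and 11.9 CPM in LiKM on the normal diet and 24.6, 39.1 and 35.2 CPM on ACR (log2 1.01, SE 0.20, edgeR adjusted p = 0.187 unpaired and 0.0854 paired), and 30.5 ± 2.15 and 10.8 ± 0.793 CPM in LiK (log2 -1.50, edgeR adjusted p = 0.0179). Its diet effects thus had opposite signs, with a difference of 2.51 on the log2 scale (edgeR adjusted p = 0.0201).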

How the data were processed

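Libraries were made from total RNA of non-tumorous liver with a stranded mRNA kit, per the labels' protocols. The authors deposited expected counts, 1 value per gene symbol and library, and 18.9% of the values above 0 are not whole (tolerance 1e-09). Counting with featureCounts 2.0.0 on mm10 is named in the submitters' processing notes. No source used here names the aligner, annotation, strand setting or treatment of shared reads. Overlapping antisense genes and near-identical copies are therefore uncertain. All 12 columns matched a sample title (0 unmatched).

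Counts were rounded and tested with edgeR 4.0.16 in R 4.3.3 (filterByExpr by group, TMM scaling, robust quasi-likelihood fit, 1 coefficient per group, Benjamini-Hochberg over all genes). The common biological coefficient of variation was 0.203. CPM values use TMM factors. DESeq2 1.42.0, other filters and scalings, left-out mice and clock components were alternatives. Positions are from GENCODE for mm10, promoters from RefSeq; 45 of the 73 genes of the paired test had a promoter there. Scripts were tested on simulated data.

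No 2 LiKM libraries of the same diet agreed within sampling noise, and other pairs of libraries were not compared in this way. To check pairing, deviations from group means were correlated across genes between LiKM mice of the same number: 0.366, 0.217 and 0.485 for numbers 1, 2 and 3, with other numbers at most 0.0735. Deviations within a group cancel out in sum, so the values for other numbers are not independent of those for the same number. The pairing was kept because of these correlations, which come from the same libraries as the paired calls. No label says what a number shares. Among the LiKM mice only ACR mouse 3 has an identifier that begins with MP, while those of the others, normal diet mouse 3 among them, begin with KM. No source used here says what this prefix stands for. In LiK the correlations of same-numbered mice were 0.023, -0.052 and -0.0717, so LiK mice were not paired.

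The 38 gene lists (1060 entries, 10 not in the table) and the members were chosen with earlier results of these data known. Genes named are 7 chosen ones (Mdm2, Trp53, Cdkn1a, Ctgf, Cyp26a1, Rarb, Mycn), the 10 higher and 10 lower of smallest unpaired p with at least 5 CPM and no overlap, given as values, the 6 largest rises and falls of the paired test under the same limits, up to 3 members of smallest p in the 12 lists with most members at an unadjusted p under 0.05 and in the clock list, and the strain difference past the threshold. Other list members are examples chosen after their values were seen. Some genes these rules name, and some details of the genotypes, are not reported here.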

Additional observations from a re-analysis of the deposited data

Results flagged for a closer look

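The diet effect on Mreg differed between the strains by 2.51 on the log2 scale (edgeR adjusted p = 0.0201, test of the difference itself): it was higher on ACR in all 3 LiKM pairs and lower on ACR in LiK.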

How the results depend on the processing

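The unpaired count of 0 genes for ACR in LiKM became 70 with DESeq2, 1 with clock components as covariates, and 0 to 5 when each LiKM mouse was left out (5 without ACR mouse 1). It stayed at 0 with DESeq2 size factors, library size alone, other filters and the identifier prefix. With the replicate block it was 73 in the 6 LiKM libraries, 7 in all 12 with the block nested in strain and 9 with the block in LiKM only. The paired count of 73 was 72 with DESeq2 size factors, 178 with library size alone, 162 with DESeq2, 179 with no filter, 26 with at least 5 CPM in 3 libraries and 0 to 222 without 1 pair. The 0 was without the mice numbered 3, and fits without a pair have 4 libraries. Library size alone moved the median of all genes to -0.16 and gave 91 higher and 1331 lower genes at an unadjusted p under 0.05, against 324 and 681. The alternatives of the paired count, the block in LiKM only and the fit without the mice numbered 3 were chosen after seeing the data.

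The count of genes differing between strains (1) was 16 with library size alone, 157 with DESeq2, 2 with no filter, 146 with the replicate block nested in strain, 0 with the identifier prefix, 0 with clock components and 0 to 20 leaving out 1 mouse (20 without LiKM ACR mouse 3). The call on Mreg was lost in 9 of 20 alternatives, with the same direction.

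Of 58 named genes, 6 changed sign in 1 or more alternatives; the cause was not tested. Trp53 (main -0.00) was 0.0080 with DESeq2 size factors, 0.010 with DESeq2, 0.011 with either replicate block in 12 libraries and 0.034 with clock components. It was 0.033 with the block in 6 libraries, 0.019 in 6 without it, 0.11 without the mice numbered 3 and -0.13 to 0.18 leaving out 1 mouse. Without normal diet mouse 3 and ACR mice 2 and 3, which leaves ACR mouse 1 as the only LiKM mouse on ACR, it was 0.13. Mdm2 was -0.027, Cdkn1a -0.41, Npas2 -2.44 and Acss2 -0.21 without those 3 libraries. With clock components Cdkn1a was -0.28, Npas2 -0.34 and Mycn -0.10, and Mycn ranged from -0.20 to 0.92 leaving out 1 mouse. Depth limits genes under 1 CPM, where LiK levels of duct genes rest on few reads.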

Other observations

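Genes of lipid droplets and lipid synthesis lay in both directions on ACR in LiKM, and 0 of the 4 named here passed either test. Cidec, a lipid droplet protein, had 10.3, 4.93 and 18.4 CPM on normal diet and 6.22, 2.58 and 5.86 CPM on ACR (edgeR adjusted p = 0.534 unpaired and 0.0915 paired), and it had 5.90 ± 1.73 CPM in LiK on normal diet and 9.51 ± 0.197 on ACR. Abhd5, the co-activator of the lipase that empties such droplets, had 50.8, 41.6 and 45.3 CPM against 82.7, 58.5 and 88.5 CPM without overlap (edgeR adjusted p = 0.22 unpaired and 0.0551 paired). Fads2, the delta-6 desaturase, had a log2 fold change of -0.49 (edgeR adjusted p = 0.554), and Acss2, which makes acetyl-CoA from acetate, of 0.52 (0.647). Of 33 genes of fatty acid and triglyceride synthesis 14 were above 0 and 19 below (median -0.06), and 1 was higher and 3 lower at an unadjusted p under 0.05. Of 27 cholesterol synthesis genes 2 were higher at that level (median 0.21). The shares of all genes at that level were 2.33% higher and 4.91% lower.

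Sex-biased liver genes were looked at because all mice were male. Of 16 female-biased genes 11 were above 0 and 5 below, with a median of 0.42, and 3 were higher and 2 lower without overlap. Only 2 passed the paired test, Ntrk2 and Prom1, which fell, and Prom1 is also a progenitor marker. Among 24 male-biased genes 9 were above 0 and 15 below (median -0.13), and 0 passed the paired test. Cyp2b13 was below 1 CPM in every normal diet mouse and had 1.74, 2.3 and 1.71 CPM on ACR (edgeR adjusted p = 0.444 unpaired and 0.112 paired). Hmox1, the heme oxygenase, had 21.4, 18.8 and 13.8 CPM against 25.8, 31.0 and 36.2 CPM without overlap (edgeR adjusted p = 0.292), Rnd1, a small GTPase, 4.60 ± 0.987 and 8.88 ± 0.823 CPM (0.302) and Bach2, a repressor best known from lymphocytes, 14.3 ± 2.49 and 26.4 ± 7.74 CPM (0.22). The counts of Rnd1 and Bach2 were not whole in any of the 12 libraries.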
